A study of Mus musculus with 7 samples.

Results

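The Hox cluster genes were read across a 6-day differentiation of mouse embryonic stem cells. They were taken as every row of the deposited expression table named Hox, a cluster letter a to d and a paralog number. That gave 39 of the 30590 rows, with 11 in the Hoxa cluster, 10 in Hoxb, 9 in Hoxc and 9 in Hoxd. Of these, 37 had a value above 0 in some library and were tested, while Hoxc12 and Hoxd11 were listed at 0 in all 7 libraries. The rule for the members uses names and no expression value, though earlier results of these data were known when it was set.

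RNA came from the mouse stem cell line Bry-GFP, a name used for cells that carry GFP at Brachyury (the gene T). All groups are this line with no further genotype named. Day 0 cells (2 libraries) grew on mouse embryonic feeder (mEF) cells with 15% serum and the cytokine LIF at 1000 U/mL. For day 2 (2 libraries) cells had spent 48 h off the feeders, in serum-free suspension seeded at 75000 cells/mL, where they form embryoid bodies. Day 4 bodies (2 libraries) then had 48 h of 150 ng/mL Noggin, a BMP inhibitor, with 25 ng/mL Wnt3a and 9 ng/mL Activin A, a TGF-beta family ligand, a mix meant to induce primitive streak. The day 6 library had a further 48 h of bFGF at 10 ng/mL and has no replicate. The labels call the replicates biological. They do not say if feeder cells had been taken out of the day 0 cultures before RNA was made.

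Hox genes encode homeodomain transcription factors that give cells their position along the head-to-tail axis. Mouse has 4 clusters, and genes at matching places in them are paralogs numbered from 1 to 13. In embryos the low-numbered paralogs at the 3′ end of a cluster are switched on early and reach forward into the hindbrain, while the high-numbered ones at the 5′ end start later and mark the trunk, tail, limb and genital region. Retinoic acid, Wnt and FGF signals and the Cdx factors act upstream, Polycomb proteins keep silent clusters shut, and Pbx and Meis proteins bind DNA together with Hox proteins.

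Promoters are shown for 4 genes whose levels the results turn on: Hoxb1 and Hoxa2, the members that rose most from day 0 to day 2, Hoxd8, which fell, and Hoxb8, which stood between 3.38 and 4.54 in all 7 libraries. Each sequence is the 250 bases upstream of the annotated start in RefSeq's GRCm38.p6, written 5′ to 3′ on the gene's own strand. Capitals mark matches to TGATNNAT on either strand, the letters of the element that Pbx and Hox proteins bind jointly.
Hoxb1 (chr11:96365508-96365757, plus strand): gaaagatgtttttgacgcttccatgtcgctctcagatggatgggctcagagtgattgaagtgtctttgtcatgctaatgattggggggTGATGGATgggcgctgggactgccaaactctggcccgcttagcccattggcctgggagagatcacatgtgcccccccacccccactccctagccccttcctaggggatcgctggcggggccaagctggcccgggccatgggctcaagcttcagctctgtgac
Hoxa2 (chr6:52164832-52165081, minus strand): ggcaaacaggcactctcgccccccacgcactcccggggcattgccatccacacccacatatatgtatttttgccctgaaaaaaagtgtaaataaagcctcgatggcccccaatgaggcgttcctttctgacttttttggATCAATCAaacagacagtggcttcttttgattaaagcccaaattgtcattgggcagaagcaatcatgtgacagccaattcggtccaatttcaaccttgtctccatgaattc
Hoxb8 (chr11:96281655-96281904, plus strand): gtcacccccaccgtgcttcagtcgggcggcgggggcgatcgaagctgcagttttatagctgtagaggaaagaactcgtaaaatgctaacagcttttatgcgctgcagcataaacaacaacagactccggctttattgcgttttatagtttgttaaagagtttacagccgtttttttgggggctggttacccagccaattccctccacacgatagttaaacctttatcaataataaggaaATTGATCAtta
Hoxd8 (chr2:74704365-74704614, plus strand): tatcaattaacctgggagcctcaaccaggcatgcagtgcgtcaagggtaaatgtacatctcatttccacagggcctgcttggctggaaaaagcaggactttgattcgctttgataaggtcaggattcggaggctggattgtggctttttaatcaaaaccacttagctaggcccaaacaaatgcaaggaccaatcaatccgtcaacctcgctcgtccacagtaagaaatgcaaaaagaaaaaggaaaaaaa
Windows were matched by symbol for 22 of the 39 Hox genes (24 windows, as some genes have more than 1 start), and 4 windows of 4 genes held the motif, against 2524 of 32851 promoters of the same length (7.7%). In Hoxb1 the match, TGATGGAT on the gene's strand, lies 162 to 155 bases upstream of the start. In Hoxa2 it is TGATTGAT on the opposite strand, 111 to 104 bases upstream. Hoxb8 has TGATCAAT on the opposite strand, 11 to 4 bases upstream. The Hoxd8 window has no match, and the other gene with one was Hoxd11, a gene listed at 0 throughout. Most of the Hox windows with a match are thus among the 4 shown, which are no fair sample of the windows. These are matches of letters, no binding was measured, and whether a match goes with a change in level was not tested.

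Values below are levels, log2 of 1 plus the authors' scaled reads. Rough depth, read from the steps between low values, was 2790000 to 5790000 reads per library. The level of 3 reads lay between 1.45 and 2.30, and nothing below it can be read as a difference. Hox genes took 286 to 769 of the rough reads of a library, so most members rest on few reads. Replicates differed by a median of 0.51 at day 0, 0.39 at day 2 and 0.80 at day 4 over the 37 tested Hox genes, against 0.24, 0.33 and 0.30 over all genes tested. A value of exactly 0 may stand for an estimate that failed, so such values are called listed at 0, and no difference is given for a day on which every library is at 0. Of the members, 23 overlap another annotated gene (15 of them on the same strand, 14 on the other). Reads of Hoxa3 with Hoxa4 to Hoxa6, of Hoxc5 with Hoxc6 to Hoxc10 and of Hoxd3 with Hoxd4 may have been split by the authors' counting, and use of strand is not given.

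Markers of feeder, stem and neural progenitor cells were read first, and those of posterior mesoderm are given further below. The 16 feeder fibroblast genes were high on day 0, with a summed level of 14.39 and 14.56, against 10.97 and 10.46 at day 2, 8.97 and 8.88 at day 4 and 9.26 at day 6. None of the 16 was at 0 on day 0. The stem cell genes, among them Pou5f1 and Nanog, summed to 13.33 and 13.13 at day 0, 12.96 and 12.74 at day 2, 11.83 and 11.85 at day 4 and 9.32 at day 6. The neural progenitor genes, among them Sox1 and Pax6, summed to 9.12 and 8.96 at day 0, 9.78 and 9.51 at day 2, 11.36 and 11.04 at day 4 and 11.82 at day 6. Most of the day 0 sum was Nes, at 9.00 and 8.86, which did not pass as changed to day 2 (8.73 and 8.46). On day 0 Sox1 was at 2.95 and 2.64 and Pax6 at 4.76 and 4.43. From day 0 to day 2, 4 of 6 neural genes rose and 1 of 5 stem cell genes, Zfp42, fell. In bulk RNA, fewer cells of a type and less RNA per cell cannot be told apart.

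Day 0 libraries held the most Hox genes. There, 27 of the 39 were above the level of 3 reads in both libraries, against 13 at day 2, 10 at day 4 and 14 in the day 6 library. The day 6 count asks for 1 library only. Day 0 libraries were also the deepest, with 5790000 and 4640000 rough reads against 2790000 to 4500000 later. The level of 3 reads was thus lower there, at 1.45 and 1.71 against 1.81 to 2.30 later. On at least 1 day 30 members were above it in every library of that day, and 7 were above it in all 7 libraries, among them Hoxa2, Hoxb3, Hoxb8 and Hoxb9. The other 9, given here by range, were Hoxa6, Hoxa7, Hoxa10, Hoxa13, Hoxb13, Hoxc11, Hoxc12, Hoxd1 and Hoxd11, with a highest single level of 1.98 (Hoxa10, day 0 replicate 1, about 4.6 reads). Members listed at 0 numbered 5 and 3 at day 0, 15 and 14 at day 2, 17 and 10 at day 4 and 14 at day 6. Over all genes, 18211 and 17929 were above 0 at day 0, 17094 and 17053 at day 2, 16611 and 17558 at day 4 and 16938 at day 6.

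**Figure D1:**
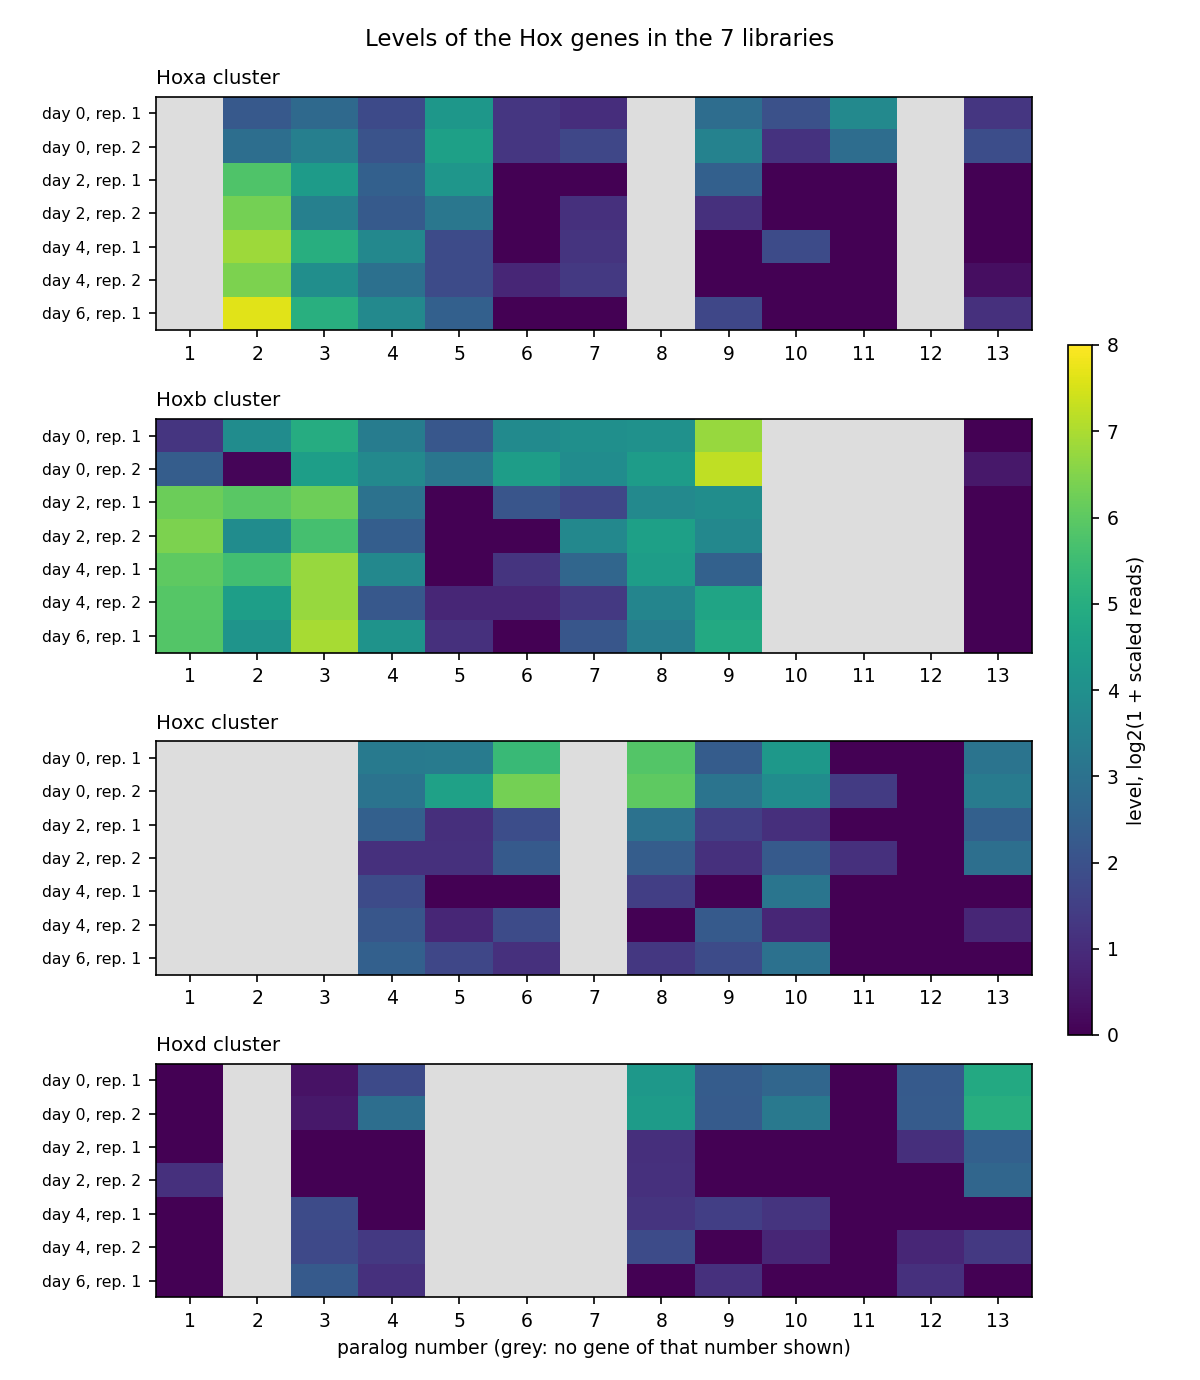
Level (colour, log2 of 1 plus scaled reads) of the Hox genes by paralog number (columns) in each of the 7 libraries (rows), with 1 panel per cluster and grey where no gene of that number is shown. Day 0 rows carry signal across the numbers, and from day 2 on the brightest cells are low paralog numbers of Hoxa and Hoxb, up to 7.63 for Hoxa2 on day 6.

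From day 0 to day 2 the Hox genes that passed the test went up at low paralog numbers and down at high ones. Hoxb1, Hoxa2 and Hoxb3 rose, and Hoxc6, Hoxa11, Hoxc8, Hoxd8, Hoxb9, Hoxd10, Hoxc5, Hoxb5 and Hoxd13 fell. That is 12 of 37 tested members (32.4%), against 12.0% of all 21813 genes tested, by limma with Benjamini-Hochberg adjustment over all of them. By direction, 3 rose (8.11%, against 5.76% of all genes) and 9 fell (24.3%, against 6.20%). The median log2 change was -1.38 over the members and 0.05 over all genes tested. At an unadjusted p under 0.05 there were 20 members (54.1%, against 26.9% of all genes). Paralogs 1 to 4 gave the 3 rises and no fall among 12 genes, with a median change of 0.70. Paralogs 5 to 8 gave 5 falls among 11 (median -2.65), and paralogs 9 to 13 gave 4 among 14 (median -1.66). All 11 and all 14 of these were negative in sign, called or not. Not all of these signs can be read, as Hoxa6, Hoxa7, Hoxb13 and Hoxc11 were never above the level of 3 reads. The sign of Hoxc11 held in 7 of 9 alternatives and that of Hoxb8 (-0.09) in 9 of 11. With values below the level of 3 reads raised to 2.30, the floor, the medians were 0.46, -0.92 and -0.46 in the 3 classes, -0.30 over the members and 0 over all genes. The calls then numbered 12 of 28 Hox genes, against 18.2% of all genes, with 9 shared with the 12 above: Hoxa11, Hoxb5 and Hoxd10 were lost, and Hoxb6, Hoxc10 and a paralog 4 gene, Hoxc4 (-0.78, adjusted p = 0.0322), were called lower.

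The number of calls was not stable to the loss of a library. It was 3 without day 0 replicate 1 (Hoxa11, Hoxb1 and Hoxd10), 2 without day 0 replicate 2 (Hoxa11 and Hoxb1), 0 without either day 2 library or without day 4 replicate 1, and 5 without day 4 replicate 2 (Hoxa2, Hoxb1, Hoxb9, Hoxc8 and Hoxd8). Over all genes the same fits called 0 to 691, and no Hox gene with a call changed sign in them. The called genes had no overlap between day 0 and day 2 libraries, so leaving 1 library out could not turn a sign. Among the 8 members with a mean of at least 10 scaled reads 5 were called, 4 higher and 1 lower, where 25.0% of all genes at that level were called. Without trend or robust moderation of the variance 6 of 37 were called, 2 higher and 4 lower, against 7.38% of all genes.

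**Figure D2:**
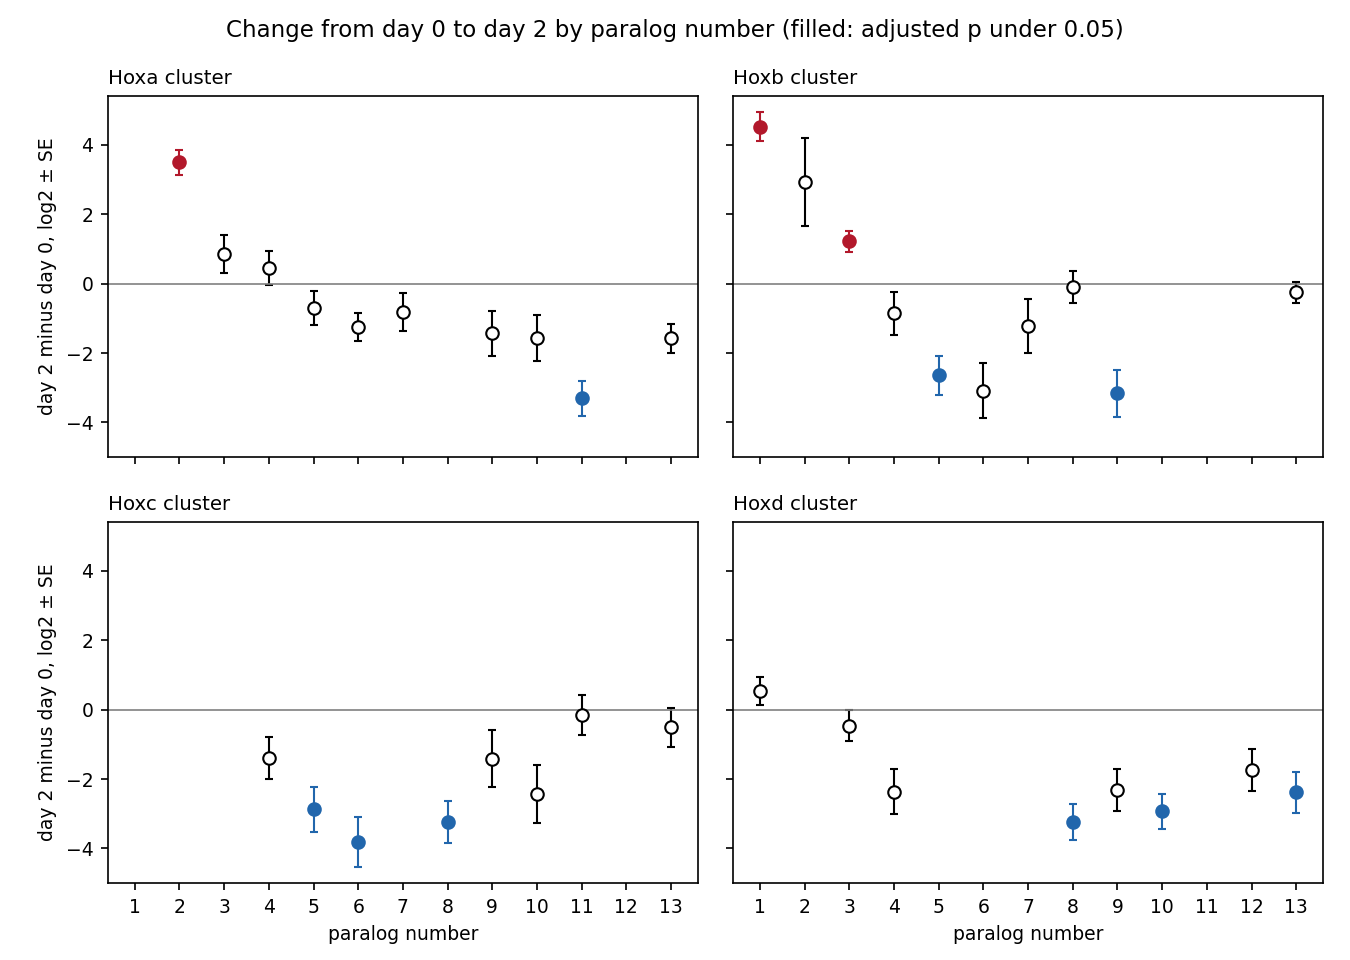
Difference in level, day 2 minus day 0 (log2, with bars of 1 SE from limma), by paralog number in each cluster, with filled points for an adjusted p under 0.05. Filled points above 0 are Hoxb1, Hoxa2 and Hoxb3, and the 9 below it all have numbers of 5 or more.

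Paralog 1 genes are the earliest Hox genes of the embryo and mark the hindbrain around the fourth rhombomere. Hoxb1 (chromosome 11, 96365752 to 96368256, plus strand) was 1.23 and 2.35 at day 0, 6.21 and 6.41 at day 2, 6.03 and 5.88 at day 4 and 5.85 at day 6. In rough reads that was 2.3 and 5.3 on day 0 and 49.1 to 69.0 in the 5 later libraries, with no overlap between day 0 and the rest. Hoxb1 rose by 4.52 (SE 0.42, adjusted p = 0.00210) from a mean of 1.79 ± 0.79 to 6.31 ± 0.14 (SD, n = 2), the largest rise of any Hox gene, and its day 0 level is near the limit of reading. Its adjusted p ran from 0.00014 to 0.0612 over the 11 alternatives, 8 of which called it. Hoxd1 had 1 read, in day 2 replicate 2, and was listed at 0 elsewhere.

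Paralog 2 genes pattern the hindbrain and its neural crest. Hoxa2 (chromosome 6, 52162417 to 52164831, minus strand) was 2.22 and 2.90 at day 0, 5.80 and 6.33 at day 2, 6.84 and 6.41 at day 4 and 7.63 at day 6, the highest Hox level of the series. It had 5.7 and 8.0 rough reads on day 0 and 169.8 on day 6. Hoxa2 rose by 3.50 from day 0 to day 2 (SE 0.35, adjusted p = 0.00283, 11.3-fold on this scale). Its later steps were 0.57 to day 4 (adjusted p = 0.439) and 1.00 to day 6 (adjusted p = 0.213). Day 6 stood 1.57 above day 2 (adjusted p = 0.0564), which passed in 2 of 11 alternatives, with the mean-level minimum (adjusted p = 0.0248) and with low values raised to the floor (adjusted p = 0.0457).

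Hoxb2, which is active in the hindbrain beside Hoxa2, could not be read as closely. Its levels were 3.90 and 0.10 at day 0, 5.94 and 3.91 at day 2, 5.59 and 4.50 at day 4 and 4.13 at day 6. The day 0 replicates were 3.81 apart, the widest gap of any member, and day 2 replicate 2, at 3.91, was level with day 0 replicate 1, at 3.90. The difference from day 0 to day 2 was 2.92 (SE 1.27, adjusted p = 0.202).

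Paralogs 3 and 4 mark the hind part of the hindbrain and the neck. Hoxb3 (chromosome 11, 96323326 to 96347930, plus strand) was 4.95 and 4.48 at day 0, 6.23 and 5.64 at day 2, 6.76 and 6.77 at day 4 and 6.95 at day 6. All later libraries were above both day 0 libraries. It rose by 1.22 to day 2 (SE 0.29, adjusted p = 0.0439), a call kept in 4 of 11 alternatives. Hoxa3 was at 2.73 and 3.46, 4.41 and 3.48, 5.0 and 3.94 and 5.03 on days 0, 2, 4 and 6. Day 2 replicate 2 lay just above the higher day 0 library (difference of the day means 0.85, adjusted p = 0.406).

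Among the paralog 4 genes, Hoxa4 was 1.79 and 2.04 at day 0, 2.46 and 2.25 at day 2, 3.75 and 2.94 at day 4 and 3.75 at day 6, which is 3.0 to 10.8 rough reads. Hoxb4 had 3.37 and 3.75, 3.01 and 2.40, 3.75 and 2.21 and 4.12 over the same libraries, with days that overlapped. Hoxc4 was at 3.28 and 3.04, 2.46 and 1.09, 1.83 and 2.14 and 2.45, and Hoxd4 at 1.81 and 2.90, 0 and 0, 0 and 1.34 and 1.10. The 2 Hoxc and Hoxd genes thus stood above all later libraries on day 0, and neither difference to day 2 passed the test (adjusted p = 0.202 and 0.0651). Hoxd3 was 0.40 and 0.51 at day 0, listed at 0 at day 2, 1.83 and 1.77 at day 4 and at 2.28 at day 6, about 3.4 reads.

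**Figure D3:**
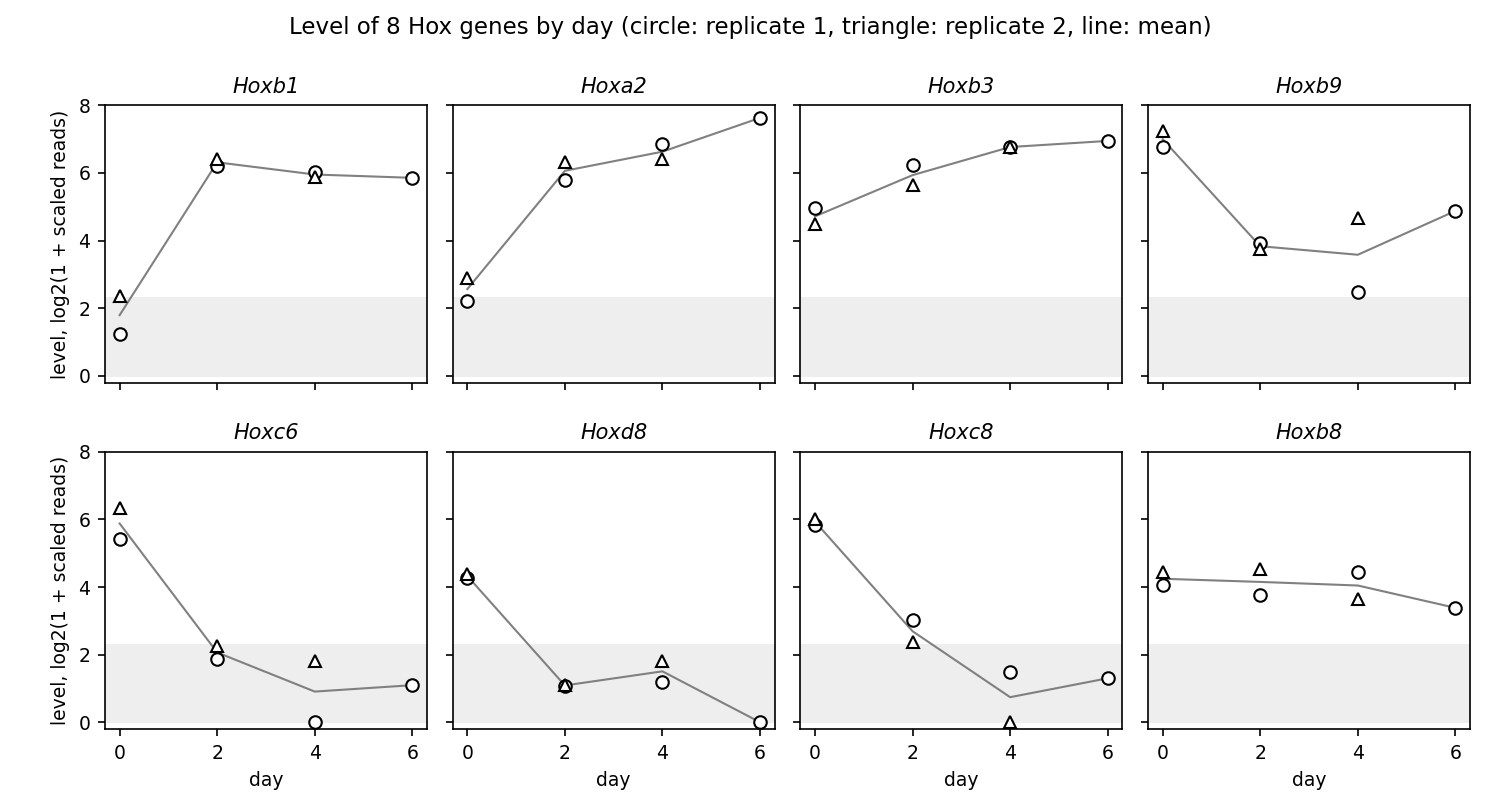
Level (log2 of 1 plus scaled reads) of 8 Hox genes by day, with a circle for replicate 1, a triangle for replicate 2, a line through the day means and grey up to 2.30, the highest level that 3 reads give in any library. Hoxb1, Hoxa2 and Hoxb3 leave the day 0 level by day 2, Hoxc6 and Hoxd8 lie in the grey from day 2 and Hoxc8 from day 4, and Hoxb8 stays between 3.38 and 4.54.

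Paralogs 5 to 8 pattern the trunk. Hoxc6 (chromosome 15, 102998257 to 103011881, plus strand) was 5.43 and 6.33 at day 0, 1.88 and 2.25 at day 2, 0 and 1.81 at day 4 and 1.10 at day 6. From 64.7 and 98 rough reads on day 0 it was down to 3.0 or fewer in every later library. Hoxc6 fell by 3.81 (SE 0.71, adjusted p = 0.0200), the largest fall of a Hox gene. Hoxc8 (chromosome 15, 102990607 to 102994111, plus strand) was 5.85 and 6.02, 3.02 and 2.37, 1.48 and 0 and 1.30, and fell by 3.24 to day 2 (SE 0.61, adjusted p = 0.0208). Hoxd8 (chromosome 2, 74704615 to 74707933, plus strand) was 4.27 and 4.38, 1.08 and 1.09, 1.20 and 1.81 and 0, and also fell by 3.24 (SE 0.51, adjusted p = 0.0111), or by 2.03 with values below 3 reads raised to the floor. In all 3 genes the day 0 libraries stood clear of the later ones.

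Hoxc5 was 3.34 and 4.58 at day 0, 1.08 and 1.09 at day 2, 0 and 0.86 at day 4 and 1.72 at day 6, and fell by 2.87 to day 2 (adjusted p = 0.0342), or by 1.66 with the floor. Hoxb5 was at 2.16 and 3.13 on day 0, listed at 0 in both day 2 libraries and in day 4 replicate 1, and at 0.86 and 1.10 in the last 2 (adjusted p = 0.0317 for day 2 against day 0). With the floor that difference was -0.42 and did not pass (adjusted p = 0.378). Hoxb6 was at 3.83 and 4.45, 2.12 and 0, 1.20 and 0.86 and 0, just short of the threshold (-3.08, adjusted p = 0.0518). Hoxb7 had 3.99 and 3.89, 1.70 and 3.74, 2.64 and 1.34 and 2.14, with 1 day 2 library close to day 0 (-1.22, adjusted p = 0.406).

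Hoxa5 and Hoxb8 had the smallest differences from day 0 to day 2 among paralogs 5 to 8. Hoxa5, which patterns the neck, lung and upper trunk, was 4.23 and 4.54 at day 0, 4.20 and 3.18 at day 2, 1.83 and 1.81 at day 4 and 2.45 at day 6. Its difference was -0.70 to day 2 (adjusted p = 0.447) and -1.86 from day 2 to day 4 (adjusted p = 0.0944). Hoxb8 (chromosome 11, 96281905 to 96285315, plus strand) was 4.06 and 4.43, 3.76 and 4.54, 4.44 and 3.65 and 3.38. Its day 0 and day 2 libraries overlapped (difference -0.09, SE 0.46, adjusted p = 0.958), and 8.1 to 25.4 rough reads were behind each value.

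Paralogs 9 to 13 mark the lumbar region, tail, limb ends and genital tubercle. Hoxb9 (chromosome 11, 96271457 to 96276595, plus strand) was the highest Hox gene of day 0 at 6.76 and 7.23, or 165.0 and 184.5 rough reads. It was 3.92 and 3.74 at day 2, 2.49 and 4.67 at day 4 and 4.87 at day 6. Hoxb9 fell by 3.16 to day 2 (SE 0.67, adjusted p = 0.0300). Its 2 day 4 libraries were 3.5 and 29.2 rough reads, too far apart to place day 4 against day 2 or day 6. Hoxd13 (chromosome 2, 74668310 to 74671599, plus strand), a gene of digits and genital tubercle, was 4.84 and 5.02 at day 0, 2.46 and 2.64 at day 2, 0 and 1.34 at day 4 and 0 at day 6. It fell by 2.38 to day 2 (SE 0.59, adjusted p = 0.0483), a call made in 2 of 10 alternatives.

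Hoxa11, a limb and kidney gene, was at 3.75 and 2.86 on day 0 and listed at 0 in all 5 later libraries (adjusted p = 0.00957). With the floor its difference was -1.01 and missed the threshold (adjusted p = 0.0772). Hoxd10, at 2.63 and 3.23 on day 0, had no value above 0 in the day 2 pair or on day 6, with 1 read in each day 4 library (adjusted p = 0.0148). With the floor its difference was -0.63, which did not pass (adjusted p = 0.116). Hoxc10 was at 4.27 and 3.91, 1.08 and 2.25, 3.11 and 0.86 and 2.97, and Hoxa9 at 2.86 and 3.55, 2.46 and 1.09, 0 and 0 and 1.72. Neither passed (adjusted p = 0.117 and 0.217). Hoxc9 was at 2.34 and 3.08, 1.49 and 1.09, 0 and 2.26 and 1.83, the widest replicate gap of day 4. Hoxd9 was 2.33 and 2.29, then listed at 0 at day 2, 1.49 and 0 at day 4 and at 1.10 at day 6, and Hoxd12 at 2.28 and 2.29, 1.08 and 0, 0 and 0.86 and 1.10. All 3 were highest in the day 0 libraries, and none of their later values rests on more than 4.5 rough reads. Hoxc13 was at 3.09 and 3.32 at day 0 and 2.46 and 2.93 at day 2, with both day 0 libraries above both later ones and a difference that did not pass (-0.51, adjusted p = 0.637). It had 1 read in 1 day 4 library, and was listed at 0 in the other and on day 6.

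Over all 5 later libraries, 22 of 37 tested members (59.5%) had both day 0 libraries above them, against 13.8% of all genes tested. They were 2 of 12 paralogs 1 to 4, 9 of 11 paralogs 5 to 8 and 11 of 14 paralogs 9 to 13. Among these, Hoxa6 had 2.4 and 2.0 rough reads on day 0, and Hoxa5 was 4.23 in 1 day 0 library against 4.20 in 1 of day 2. The reverse, both day 0 libraries below the rest, held for 6 members: Hoxa2, Hoxa3, Hoxa4, Hoxb1, Hoxb2 and Hoxb3. That share (16.2%) was close to the 15.3% of all genes. Margins were thin for Hoxb2 (3.91 against 3.90) and Hoxa3 (3.48 against 3.46). Hoxa4 had 4.0 and 3.0 rough reads on day 2 against 3.9 and 4.0 on day 0. Of the feeder genes, 14 of 16 were lower on day 2, with a median change of -3.79. Col1a1, a collagen chain, was 11.16 and 11.82 at day 0 and 7.17 and 6.12 at day 2. Smooth muscle actin Acta2 was 11.59 and 11.89 at day 0 against 4.23 and 3.22 at day 2, and 2 of the 16, Lum and Dcn, did not pass. Summed paralogs 5 to 8 were 7.60 and 8.11 at day 0 and 5.60 and 5.78 at day 2, and summed paralogs 9 to 13 at 7.66 and 7.98 and then 5.03 and 5.02. The part of feeder cells in the day 0 Hox values was not tested.

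Relative to length the make-up of the Hox signal turned over between day 0 and day 2. Scaled reads were divided by the longest protein-coding transcript of each gene in GENCODE, in kilobases, and summed. Paralogs 1 to 4 held 17.7% and 13.8% of the sum on day 0, 81.9% and 77.3% at day 2, 88.6% and 84.9% at day 4 and 88.5% at day 6. Paralogs 5 to 8 went from 46.0% and 51.1% on day 0 to 4.49% on day 6, and paralogs 9 to 13 from 36.3% and 35.1% to 6.98%. The total differed less, 227 and 289 scaled reads per kilobase on day 0, 199 and 181 at day 2, 214 and 169 at day 4 and 256 at day 6. By cluster, Hoxc held 34.5% and 38.3% on day 0 and 2.89% to 6.20% later. Hoxa went from 14.7% and 14.7% on day 0 to 56.3% on day 6. These shares are descriptions without a test.

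**Figure D4:**
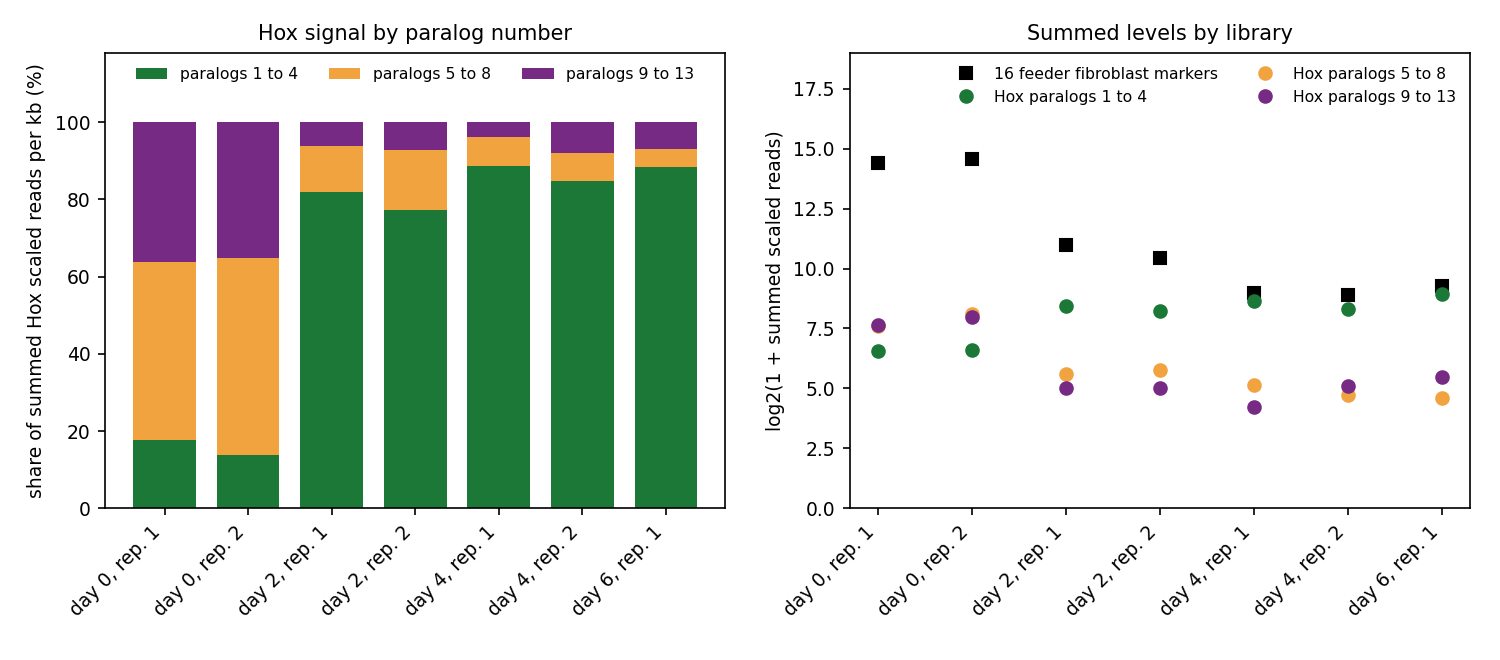
Left, share (%) of the summed Hox scaled reads per kilobase held by paralogs 1 to 4, 5 to 8 and 9 to 13 in each library. Right, log2 of 1 plus the summed scaled reads of the same classes (circles) and of the 16 feeder fibroblast genes (squares): feeder genes and both higher classes are highest in the 2 day 0 libraries, paralogs 1 to 4 lowest there.

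The order of levels per kilobase changed with the days. On day 0 Hoxb9 led with 41.6 and 58.1 scaled reads per kilobase, followed by Hoxc8 with 30.2 and 34.2 and Hoxc6 with 26.6 and 50.3. Hoxc8 and Hoxc6 swapped places between the replicates, so their order cannot be given. On day 2 Hoxa2 with 30.8 and 44.6, Hoxb1 with 35.1 and 40.4 and Hoxb2 with 37.2 and 8.59 overlapped. On day 4 Hoxa2 with 64.1 and 47.5 was above Hoxb3 with 33.6 and 34.0, Hoxb3 above Hoxb1 with 30.9 and 27.7, and Hoxb1 overlapped Hoxb2 with 28.9 and 13.3. On day 6 the order was Hoxa2 with 110.8, Hoxb3 with 38.3 and Hoxb1 with 27.3, and these 3 genes made up 69.0% of the Hox sum.

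From day 2 to day 4, through Noggin, Wnt3a and Activin A, no Hox gene passed the test in limma, against 3.59% of all genes, and 8 were at an unadjusted p under 0.05 (21.6%, against 21.6% of all genes). Hoxb3 was 0.83 higher (adjusted p = 0.168), and Hoxc13, Hoxd13 and Hoxc8 were lower by 2.27, 1.88 and 1.95 in sizes that did not pass. Day 4 values of these last genes all lay below the level of 3 reads. With the floor their changes were -0.40, -0.25 and -0.39, in the same order. In that step 7 of the 16 feeder genes passed as lower, with a median change of -1.70. Without trend or robust moderation 1 Hox gene was called, Hoxd3 (adjusted p = 0.0337), against 1.54% of all genes. From day 4 to day 6, through bFGF, again no Hox gene passed, against 4.46% of all genes, with 1 at an unadjusted p under 0.05 (Hoxd8; 2.70%, against 25.3% of all genes). Without trend or robust moderation that comparison also called 0, with 4 at an unadjusted p under 0.05 (10.8%, against 23.5% of all genes). The lone day 6 library is assumed in the fit to vary like the other days.

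From day 2 to day 6, 2 of 37 members were called (5.41%, against 15.9% of all genes). Hoxd3 was called higher (2.70%, against 7.47%) and Hoxc13 lower (2.70%, against 8.41%). Both rest on few reads: Hoxd3 went from listed at 0 to about 3.4 reads (adjusted p = 0.0347) and Hoxc13 from 4.0 and 5.0 reads to listed at 0 (adjusted p = 0.0433). With the floor neither was called. In their place Hoxa2 and Hoxa4 were called higher (adjusted p = 0.0457 and 0.0460), 2 of 28 where 24.4% of all genes were called. The count was 1 without either day 0 library and 0 without any other library or with a replicate block. With the mean-level minimum 1 of 8 Hox genes was called, Hoxa2, against 32.5% of all genes at that level. Over the days jointly limma's F test called 18 of 37 (48.6%), against 28.6% of all genes. They were the 12 genes of the day 2 step and 6 more, among them Hoxa5, Hoxb6, Hoxc13 and Hoxd3. Without day 0 replicate 1 that count was 3, where 867 of all genes were called. It was 10 without either day 2 library, where 4118 and 4181 genes were called, and 6 without day 4 replicate 2, where 1590 were. Without day 0 replicate 2 or day 4 replicate 1 no gene of any kind was called.

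Retinoic acid is the best-known inducer of low-numbered Hox genes, and 20 genes of its pathway were read. From day 0 to day 2, 6 of them rose, against 5.76% of all genes, and none fell. The median change was 0.38 against 0.05 over all genes. That step also took away feeders, serum and LIF, and whether retinoic acid had a part in the Hox changes was not tested. Crabp1, a retinoic acid carrier of the cytoplasm, rose by 3.61 (7.34 and 7.21 to 11.32 and 10.44), and Crabp2, which takes it to the receptor, by 2.61. Cyp26c1, which breaks retinoic acid down, rose from listed at 0 to 3.76 and 3.38. Cyp26b1, a second degrading enzyme, rose by 1.95. Aldh1a2, which makes retinoic acid, was 3.76 and 4.49 at day 0 and 3.64 and 2.64 at day 2 (adjusted p = 0.397). Cyp26a1, 4.72 and 3.74 at day 0 and 5.56 and 5.04 at day 2, did not pass either (adjusted p = 0.166), while Rarb, a receptor, rose by 1.69 (adjusted p = 0.0480). To day 4, 1 of 20 rose, Cyp26b1 by 3.86, and to day 6, 2 passed as lower: Dhrs3 went from 3.53 and 3.60 to listed at 0, and Rarg fell by 1.66.

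The TALE homeodomain class includes Pbx and Meis, the DNA-binding partners of Hox proteins. Of the 11 genes of this class that were read, 5 rose from day 0 to day 2 and none fell, with a median of 0.97. Meis2 rose by 1.78 (6.55 and 6.56 to 8.32 and 8.36), Tgif2 by 1.56, Pbx3 by 1.53 and Pknox2 by 1.33. Meis1 missed the threshold narrowly (1.5, adjusted p = 0.0504). From day 4 to day 6, 2 of the 11 rose, Pknox2 by 1.61 and Meis2 by 1.23.

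Of 14 genes for caudal factors and signals that open the trunk Hox genes, 2 rose and 3 fell from day 0 to day 2. Nr6a1, a nuclear receptor needed for trunk growth, rose by 1.77 and Wnt8a by 1.64. Wnt5a fell by 2.90 and Cdx1 fell by 2.75. Cdx1 was at 3.71 and 3.98 on day 0 and 0 to 2.14 later, Cdx2 at 1.10 to 3.61 in all libraries, and Cdx4 at 1.34 or less. Wnt8a rose, then fell by 3.27 from day 4 to day 6. Of the 5 posterior mesoderm genes tested 1, Pax3, rose to day 2. T, the Brachyury gene, had levels of 9.02 and 8.67 in the day 4 bodies after 3.18 and 5.80 in the day 2 ones (4.35, adjusted p = 0.0638).

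RNAs within the clusters and the Evx genes beside them gave few values: 13 of the 23 on the list matched a row, and 6 of these were listed at 0 throughout, among them the microRNA genes Mir10a and Mir10b. Evx1, next to Hoxa13, was 1.81 and 1.71 at day 0, 1.08 and 1.09 at day 2, 2.94 and 2.94 at day 4 and 0 at day 6, and passed as lower from day 4 to day 6 (adjusted p = 0.0483). Halr1, a long RNA of the Hoxa region, was at 5.85 and 6.43, 6.35 and 5.70, 2.19 and 3.34 and 4.88, and fell by 3.26 from day 2 to day 4 (adjusted p = 0.0236). Haglr, antisense at Hoxd3, was at 1.08 or less through day 4 and at 2.97 on day 6 (adjusted p = 0.0477 against day 4), and as strand use is not given its reads and those of Hoxd3 cannot be told apart. The Mir196a-1 row was at 2.10 and 2.04 on day 0 and at 0 later (adjusted p = 0.0148 for day 2).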

How the data were processed

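Polyadenylated RNA was sequenced from 7 libraries made with a stranded kit, per the labels. The authors deposited natural log values of 1 plus scaled reads, a unit that was inferred from the steps between low values. Once sorted, the 7 columns matched to 0.01 in their top 9896 ranks, as after quantile normalization. GRCm38 is the build that the submitters' processing notes name. The sources used here do not give the aligner, the counter or the annotation. All 7 columns matched a library through the labels.

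Values were divided by the natural log of 2 to give log2 levels. Fold changes are those of 1 plus scaled reads, which makes them too small for low genes. The 103 rows of foreign sequence and 8674 genes at 0 everywhere were left out. Days were compared over 21813 genes in 1 fit of limma-trend with robust moderation (limma 3.58.1, R 4.3.3), with 1 mean per day, 3 residual degrees of freedom and Benjamini-Hochberg adjusted p under 0.05. The fit was tested on simulated data in which only genes with a mean of at least 10 scaled reads were changed. As 8 Hox genes reach that level, the simulation does not speak for the other members. Coordinates and transcript lengths are from GENCODE for GRCm38. Rough reads are scaled reads divided by the library's mean step per read from the step of 8 reads up. Below that they were interpolated between the steps.

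Values by library are given for each Hox gene that was called in a comparison or above the level of 3 reads in every library of a day. Of other gene lists, counts are given with up to 4 called genes by size and the opening 3 of the list, and genes outside this are named only where a result turns on them. Some genes that these rules name are not reported here. The members and lists were chosen with earlier results of these data known. Alternatives were a replicate block, median centring, a mean of at least 10 scaled reads, values under 3 reads raised to the floor, no trend or robust moderation, and each replicate left out.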

Additional observations from a re-analysis of the deposited data

How the results depend on the processing

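No Hox gene named with a call changed sign: of 143 alternative values for called genes, 57 kept the call, 86 lost it and 0 reversed. The 0 carries little weight, as several alternatives, such as no trend or robust moderation, leave the difference of day means unchanged. Dropping 1 library could not turn the sign either, where the libraries of the days compared did not overlap. Low read numbers and 2 libraries a day limit the counts. With a mean of at least 10 scaled reads, which leaves 8 Hox genes in the test, the calls were 5 for day 2 against day 0, 1 for day 4 against day 2, 1 for day 6 against day 2 and 5 in the F test. Of all genes at that level 25.0%, 12.1%, 32.5% and 54.4% were called, in the same order. With values under 3 reads raised to the floor, 1 was called for day 4 against day 2, against 5.85% of all genes. Hoxd3 was then constant and has no value. The floor shared 9 of its 12 calls for day 2 against day 0, and 0 of its 2 for day 6 against day 2, with the calls of the text. Without trend and robust moderation the calls were 6 for day 2 against day 0 and 1 for day 4 against day 2. Over all genes 7.38% and 1.54% were called there. Median centring gave 12, 0, 0, 2 and 18, as in the text, against 11.9%, 3.63%, 4.49%, 15.9% and 28.7% of all genes. Leaving out 1 library gave 0 to 5 calls for day 2 against day 0, 0 for both steps after it, 0 to 1 for day 6 against day 2 and 0 to 10 in the F test, with a lone library then assumed to vary like the others. Over all genes the mean-level minimum called 1422 of 11800 for day 4 against day 2 in place of 782 of 21813, and 2200 in place of 972 for day 6 against day 4.

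Same-numbered replicates deviated together between days 2 and 4 (r = 0.222) but not between days 0 and 2 (-0.058) or 0 and 4 (-0.066), over 11800 genes, so the numbers were not taken as pairs. With a replicate block the calls were 11 for day 2 against day 0, 0 for each of the next steps, 0 for day 6 against day 2 and 13 in the F test. Over all genes the shares were 10.3%, 2.60% and 2.78%, 11.7% and 23.3%, in the same order. Count models and other pseudocounts were not run, as the values are logs.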

Other observations

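Genes of the head and brain were read beside the Hox genes. Of 13 anterior neural genes, 3 rose from day 0 to day 2 and 1 fell. Pax2, a midbrain and hindbrain border gene, rose from listed at 0 to 3.42 and 3.38, Otx2, which marks forebrain and midbrain, rose by 2.28 (7.02 and 5.96 to 8.73 and 8.82) and En2 by 1.95. Emx2, a forebrain gene, fell by 2.97. Six3 was 1.22 and 0.51 at day 0 and 5.96 at day 6, 3.61 above day 2 (adjusted p = 0.0136). Otx2 and low-numbered Hox genes were thus both present from day 2 to day 6 in these bulk samples. This was not an onset for all, as on day 0 Otx2 was already at 7.02 and 5.96 and Hoxb3 at 4.95 and 4.48. Whether Otx2 and Hox genes were in the same cells was not tested.

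Of 11 hindbrain genes, 3 rose and 1 fell from day 0 to day 2. Fgf3 rose by 3.67 (2.28 and 1.26 to 5.66 and 5.21) and Irx3 by 1.5, and Cyp26c1 rose from listed at 0 to 3.76 and 3.38. Egr2, which marks the third and the fifth rhombomere, was 6.31 and 5.67 at day 0, 0 and 2.70 at day 2, 5.60 and 5.69 at day 4 and 4.47 at day 6, a fall (adjusted p = 0.0170) and then a rise (adjusted p = 0.0460). Gbx2 was at 1.65 or less in every library.

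Of 21 Polycomb genes, 5 rose and 1 fell from day 0 to day 2. Phf19 rose by 2.00, Cbx2 by 1.71, Pcgf1 by 1.34 and Kdm2b by 1.22, while Eed fell by 0.63 and Ezh2, the methylating enzyme, rose by 0.69. From day 4 to day 6, 3 passed as lower: Cbx7 fell by 1.88, Phc1 fell by 1.73 and Kdm2b fell by 1.21. Of 11 trithorax and demethylase genes 1 rose to day 2 (Kmt2c, 0.78) and 3 fell from day 2 to day 6, and Kmt2a was at 8.71 to 9.54 in all libraries. Of 19 genes that flank the Hox clusters 16 were tested and 2 rose to day 2, Cbx5 by 0.71 and Hnrnpa3 by 0.51. Skap2, which flanks the Hoxa cluster, was at 7.12 to 7.71 in every library. Of the 5 lateral plate and blood genes, 1 rose from day 4 to day 6, Hbb-bh1, an embryonic globin, by 5.10.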
